A study of Salmo trutta with 45 samples.

Results

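Livers of brown trout kept for 14 days at 0.01 mg/L glyphosate (LG, 6 fish) were set against livers of trout kept for the same time at 10 mg/L glyphosate (HG, 6 fish), and 12 unexposed fish gave the reference level. The fish were chosen by their labelled dose alone, 12 exposed fish of the 45 fish in the series. All were juvenile females about 6 months old from 1 aquaculture stock, exposed in flow-through tanks, with 2 tanks of 8 fish for each treatment and 1 liver library per fish. The 12 unexposed fish came from 2 control groups that the study compared and then combined, and the labels do not say which fish was in which. Which fish came from which tank is not in the labels, so the p values measure the spread between fish that partly shared water, and a tank effect and a dose effect cannot be told apart.

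Glyphosate blocks an enzyme of aromatic amino acid synthesis in plants, and animals have no such pathway. The fish liver makes the plasma proteins, sterols and bile acids, burns fatty acids in mitochondria, stores and releases glucose, detoxifies foreign compounds and supplies complement and other innate defence proteins. The question addressed by setting the low dose directly against the high dose is which of these functions stand at a different transcript level in the 2 groups.

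Counts were available for 61571 transcripts of the authors' own trout assembly in both glyphosate tables, and 68.6% of them carried a best match among zebrafish genes. Summed over transcripts with the same match, 10347 genes had at least 1 read in 6 or more of the 12 exposed fish and were tested. Trout often carry duplicate copies of a gene, and such copies are added together here. Reads counted on the listed transcripts were 15238297 to 25747108 per fish in LG, 10223638 to 18790316 in HG and 12922030 to 23759682 in controls. Of these reads 77.3 to 82.7% in LG, 75.5 to 77.2% in HG and 76.0 to 80.1% in controls fell on transcripts with a zebrafish match, so that every LG library lay above every HG library. The part of this difference in the gene values was not tested. Levels are given as CPM, the read count of a gene scaled to a common library size. The hepatocyte marker list matched 22 annotated genes, all of them measured. These genes summed to 229116 to 364127 CPM in LG, 229286 to 352829 CPM in HG and 248315 to 376529 CPM in controls.

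One LG fish stood apart from the rest of its group. The mean absolute difference of LG fish 1 from the median of the other LG fish was 0.70 on the log2 scale, whereas the remaining LG fish lay at 0.28 to 0.35, the HG fish at 0.33 to 0.38 and the controls at 0.26 to 0.35. Its library also had the highest share of reads on matched transcripts (82.7%) and on its 10 most abundant transcripts (16.3%, against 10.5 to 12.5% in the other LG fish and 10.1 to 12.1% in HG). Many results are therefore given with and without this fish, and those given with all fish only may still depend on it.

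**Figure D1:**
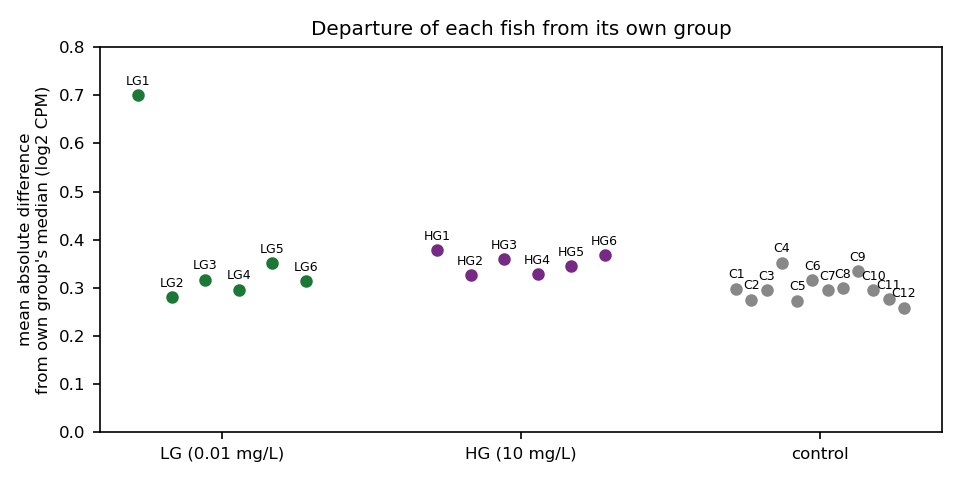
Mean absolute difference (log2 CPM) of each fish from the median of the other fish of its own group, over genes with a mean of at least 1 CPM, for LG, HG and control fish (1 point per fish). LG fish 1 lies at 0.70, above the other 23 fish, which lie at 0.26 to 0.38.

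No gene passed an adjusted p of 0.1 in edgeR's quasi-likelihood test of LG against HG, and the smallest adjusted p was 0.831. At an unadjusted p under 0.05 there were 590 genes, 5.70% of those tested, with 361 higher (3.49%) and 229 lower (2.21%) in LG. Without LG fish 1 there were 582 such genes (5.62%), 295 higher (2.85%) and 287 lower (2.77%). Among the 61547 transcripts tested, 0 passed and 3363 (5.46%) had an unadjusted p under 0.05. Other tools called a few. The edgeR exact test called 3 genes (1 higher, 2 lower in LG; 0.0290%) and 24 transcripts (11 higher, 13 lower; 0.0390%), and DESeq2 called 11 of 5084 genes (3 higher, 8 lower; 0.216%) and 25 of 50528 transcripts (4 higher, 21 lower; 0.0495%). For counts simulated at these depths with the same change in every fish, the quasi-likelihood test recovered 71 of 100 genes changed 2-fold and 97 of 100 changed 4-fold. The changed genes were drawn only from those with a mean of at least 1 CPM, and the spread between fish was the one estimated from these data. The simulated fish were drawn independently, with no fish that stood apart like LG fish 1 and no shared tanks. These shares therefore do not give the sensitivity of the test in the real fish.

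A second way to look at the 2 doses was to count genes whose 6 LG fish lay entirely above or below the 6 HG fish. Of the 9959 genes with a mean of at least 1 CPM, 36 (0.361%) did so, 17 higher (0.171%) and 19 lower (0.191%) in LG. Each of these has the smallest value that the exact permutation test over the 924 splits can give, p = 0.00216, 2-sided and not adjusted for the 9959 genes. That value is also the share of the 924 splits that separate the fish of such a gene. Over 9959 genes a large part of the 36, and not only a few, would thus be separate without any dose difference. Separation alone does not mark a gene as changed. When 1 fish was left out, so that fewer had to separate, the count was 61, 64 and 61 for LG fish 1, 3 and 5, and 60 and 95 for HG fish 3 and 6. Below, "separate" refers to such genes and "overlapping" to all others. Every gene named below had an adjusted p of at least 0.831 in the quasi-likelihood test, and all log2 fold changes are LG over HG. Exact permutation p values given for overlapping genes are not adjusted either. Many of these genes were named for the smallest p of their list in the same fish. Their permutation p values are therefore not added support.

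Read by function, the gene lists fell on either side of zero. The medians were positive for endoplasmic reticulum (ER) chaperones (0.50), interferon response (0.37), sterol synthesis (0.33) and metallothionein and zinc transporters (0.30), and negative for respiratory chain subunits (-0.19), cytochrome P450 enzymes (-0.19), mitochondrial ribosomal proteins (-0.18), fatty acid oxidation (-0.17) and cytosolic ribosomal proteins (-0.16). Over all 10347 genes the median was 0.02, and 53.2% of genes were positive. Without LG fish 1 the all-gene median was 0.0041 with 50.7% positive, the ER chaperone median was 0.11, the interferon and sterol medians were 0.21 and 0.20 and the metallothionein and zinc transporter median was 0.10. The members of a list share the same fish and are not independent of each other. At an unadjusted p under 0.05, 3.49% of all genes were higher and 2.21% lower in LG (2.85% and 2.77% without LG fish 1). Of genes with a mean of at least 1 CPM, 0.171% were separate on the higher side and 0.191% on the lower side. The list counts below are to be set against these shares. A count near its share is not a result about the list.

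**Figure D2:**
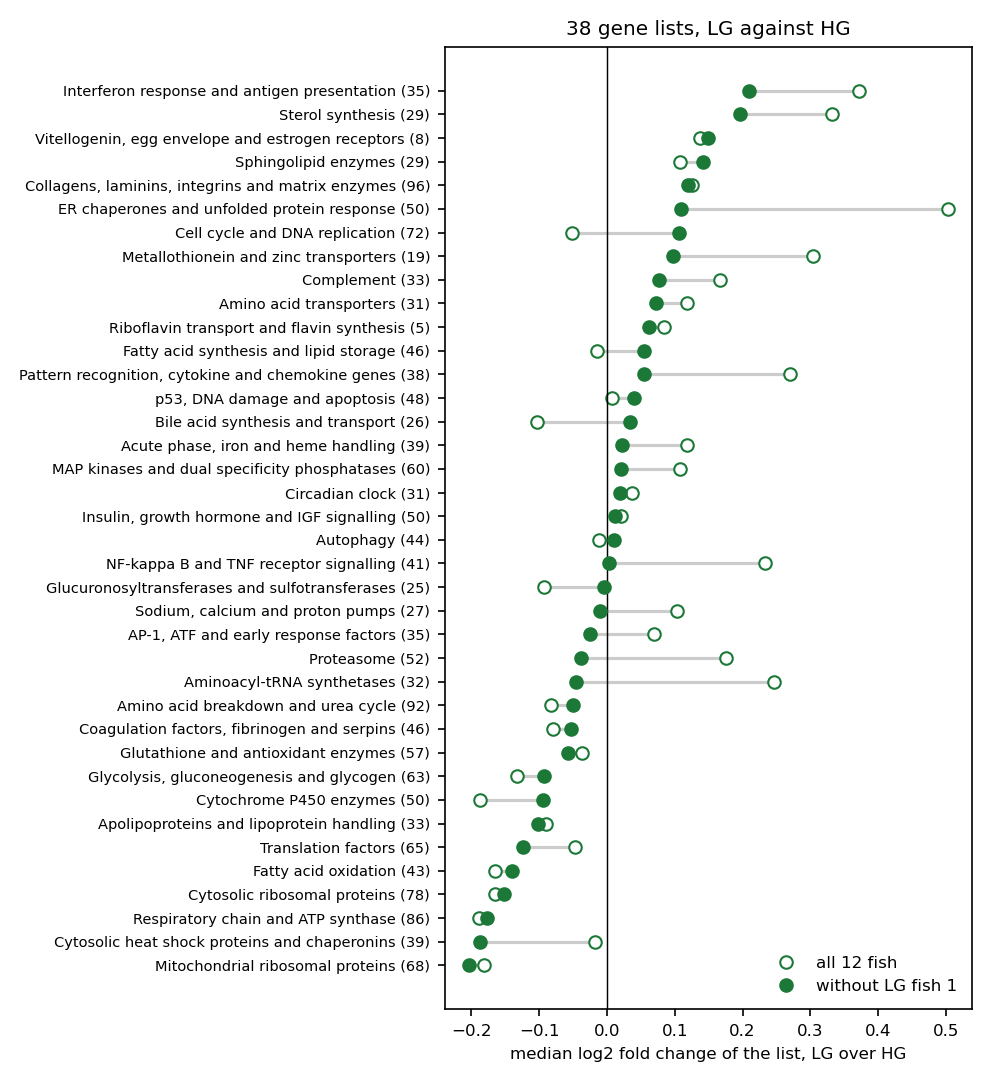
Median log2 fold change (LG over HG, horizontal axis) of each of 38 gene lists, with the number of measured genes in brackets, for all 12 exposed fish (open circles) and without LG fish 1 (filled circles). The ER chaperone median lies at 0.50 with all fish and at 0.11 without LG fish 1, whereas the mitochondrial ribosomal median lies at -0.18 and -0.20.

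Mitochondrial genes were lower in LG by a small amount in many members. Mitochondrial ribosomal proteins build the ribosome that translates the mitochondrial genome. Of 68 measured, 54 had a negative log2 fold change (46.8% of all genes did), 8 had an unadjusted p under 0.05 on the lower side and 0 on the higher side, and 3 were separate. Without LG fish 1 the numbers were 61 negative (49.3% of all genes), 12 lower and 0 higher. As the median over the list in each fish, on a log2 scale around the mean of the 12 exposed fish, the level was -0.19 to 0.04 in LG, -0.02 to 0.31 in HG and -0.15 to 0.11 in controls. Of the LG fish 5 lay below every HG fish, and LG fish 1 lay among them.

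The subunit gene mrpl43 had 4.19, 4.69 and 5.14 CPM (lowest, median and highest) in LG, against 5.65, 6.38 and 9.65 CPM in HG (log2 fold change -0.57 ± 0.16 SE). All LG fish lay below all HG fish. The controls, at 4.11 to 7.67 CPM, covered the LG range and 4 of the 6 HG fish. A second large-subunit gene, mrpl15, had 6.99, 10.2 and 10.6 CPM in LG and 10.9, 12.3 and 16.1 CPM in HG (-0.51 ± 0.15, and -0.45 without LG fish 1). The third separate member, mrpl41, kept within 14.0 to 14.9 CPM in LG and within 16.5 to 26.1 CPM in HG (-0.34 ± 0.13), where HG fish 1 was the highest. Its log2 fold change was -0.22 without that fish.

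Respiratory chain and ATP synthase subunits, which pass electrons to oxygen and make ATP, had 74 of 86 members negative, with 7 at an unadjusted p under 0.05 on the lower side, 0 on the higher side and 1 separate. The numbers were 77 negative, 12 lower and 1 higher when LG fish 1 was left out. The separate gene was ndufa13, an accessory subunit of complex I, with 29.6, 35.2 and 40.38 CPM in LG against 40.4, 45.7 and 55.2 CPM in HG (-0.40 ± 0.12). The gap between the highest LG fish and the lowest HG fish was thus very small, and controls lay at 38.4 to 51.5 CPM. Another complex I gene, ndufc2, had 23.8, 26.7 and 33.6 CPM in LG and 32.0, 36.1 and 44.6 CPM in HG (-0.44 ± 0.13), with 5 of 6 LG fish below every HG fish (exact permutation p = 0.00649).

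Fatty acid oxidation pointed the same way. Of its 43 genes 35 were negative, 3 had an unadjusted p under 0.05 on the lower side and 0 on the higher side, and without LG fish 1 there were 30 negative and 7 lower. Carnitine palmitoyltransferase 2, encoded by cpt2, reloads fatty acids onto coenzyme A inside the mitochondrion. Its transcripts were at 12.4, 14.8 and 17.0 CPM in LG, against 17.9, 20.2 and 23.5 CPM in HG (log2 fold change -0.46 ± 0.12), and controls were at 15.1, 20.2 and 24.1 CPM. The groups were separate, the HG median equalled the control median to 3 digits, and the value without LG fish 1 was -0.41. DESeq2 called this gene. The thiolase gene acaa2 (2.70 to 6.07 CPM in LG, 4.25 to 10.2 CPM in HG, log2 fold change -0.78 ± 0.27, exact permutation p = 0.0303) overlapped between groups.

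Fatty acid synthesis and lipid storage was balanced, with 22 of 46 genes positive, 3 at an unadjusted p under 0.05 on the higher side and 2 on the lower side, 0 separate and a median of -0.01. Without LG fish 1 there were 27 positive, 0 higher and 2 lower, with a median of 0.06. The genes described next were named one by one, and no list of fatty acid release and import was compared. Monoglyceride lipase, the mgll product, cleaves the last fatty acid from a glyceride, and its gene was separate at 11.8, 38.9 and 42.1 CPM in LG against 44.5, 47.8 and 141.7 CPM in HG (-0.89 ± 0.34). LG fish 1 was the lowest and HG fish 1 the highest, and the log2 fold change was -0.71 without LG fish 1 and between -0.97 and -0.48 when any single fish was left out. Of the 2 matches named lipe, hormone-sensitive lipase, ENSDARG00000078373 had 2.97, 5.50 and 8.90 CPM in LG and 6.19, 9.67 and 15.4 CPM in HG (-0.88 ± 0.29, exact permutation p = 0.026), with 5 of 6 LG fish below every HG fish, while the lipe match ENSDARG00000063037 had a log2 fold change of 0.29 ± 0.18. For slc27a6, a fatty acid transport protein gene, LG fish had 9.98, 15.4 and 24.6 CPM and HG fish 14.2, 45.6 and 109.5 CPM (-1.63 ± 0.40, exact permutation p = 0.013). HG fish 6 overlapped with the LG fish, while the other 5 HG fish exceeded all of them. Controls reached from 13.3 to 89.8 CPM with a median of 24.3 CPM. Both the exact test and DESeq2 called slc27a6, and like the other genes named for such a call it was singled out after its values were seen.

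The glucose list had 43 of 63 members negative, with 6 at an unadjusted p under 0.05 on the lower side, 0 on the higher side and 1 separate. The separate gene crtc2, a coactivator of gluconeogenic transcription in mammals, had 5.22, 8.50 and 8.85 CPM in LG and 9.28, 10.1 and 12.0 CPM in HG (-0.39 ± 0.15, and -0.30 without LG fish 1, the lowest). A glycogen phosphorylase match, annotated pygl but described as the muscle form, had 0.80, 3.49 and 5.47 CPM in LG and 4.02, 6.12 and 8.71 CPM in HG (-0.89 ± 0.35, exact permutation p = 0.013). Its log2 fold change was -0.69 without LG fish 1, which was the lowest. The list level of LG fish 1 was -0.60, whereas the other LG fish lay at -0.04 to 0.09 and the HG fish at 0.04 to 0.16. With that fish left out the list median was -0.09 in place of -0.13, with 4 genes lower and 1 higher.

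Cytosolic ribosomal proteins were negative in 74 of 78 genes, with a median of -0.16 (-0.15 without LG fish 1). Only 1 of them, rpl27, had an unadjusted p under 0.05, and 0 were separate. Their levels overlapped widely, at -0.16 to 0.16 in LG, -0.21 to 0.31 in HG and -0.33 to 0.53 in controls.

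**Figure D3:**
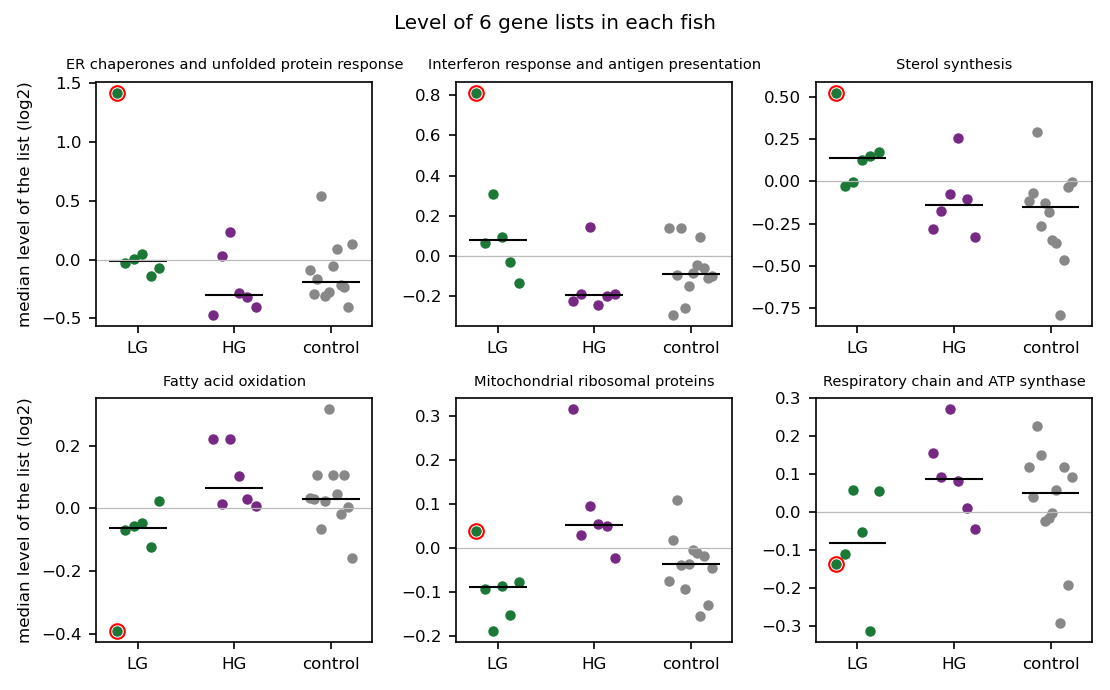
Median level of 6 gene lists in each fish (log2, relative to the mean of the 12 exposed fish) for LG, HG and control fish, with group medians as black lines and LG fish 1 circled in red. LG fish 1 reaches 1.42 for ER chaperones, where the other LG fish lie at -0.14 to 0.05, and 5 of 6 LG fish lie below every HG fish for the mitochondrial ribosomal list.

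Sterol synthesis was on the higher side in LG, both with and without LG fish 1. Of 29 genes 20 were positive, 8 had an unadjusted p under 0.05 on the higher side and 1 on the lower side, and 0 were separate. Leaving out LG fish 1 gave 21 positive, 4 higher and 0 lower.

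Squalene synthase (fdft1) had 5.25, 12.4 and 45.6 CPM in LG and 5.34, 6.48 and 8.43 CPM in HG (1.44 ± 0.40, exact permutation p = 0.0173). LG fish 1 was the highest, LG fish 3 lay below all HG fish, and the remaining 4 LG fish lay above them. The log2 fold change was 0.91 without LG fish 1. The values without LG fish 1 were 0.43 for msmo1 and 0.90 for lss, both enzymes of the later steps, and 0.38 and 0.27 for scap and srebf2, the sensor and the transcription factor of the pathway. The list level of HG fish 4, 0.26, lay above 5 of the 6 LG fish. The gene with an unadjusted p under 0.05 on the lower side was hmgcs1 (-0.48 ± 0.21), an enzyme of the early steps.

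Bile acid synthesis had 10 of 26 genes positive and a median of -0.10 with all fish, with 1 higher and 2 lower at an unadjusted p under 0.05. It turned to 14 positive and a median of 0.03 without LG fish 1, with 2 higher and 2 lower. The enzyme gene hsd3b7, which acts early in the conversion of cholesterol to bile acids, had 45.3, 93.5 and 124.1 CPM in LG and 113.8, 166.4 and 243.2 CPM in HG, with a control range of 85.1 to 295.5 CPM (log2 fold change -0.94 ± 0.25, exact permutation p = 0.00649). Of the LG fish 4 lay below every HG fish, the value without LG fish 1 was -0.81, and DESeq2 called the gene. A cytochrome P450 of the same pathway, cyp8b1, had 479.3, 794.4 and 1022.3 CPM in LG and 777.3, 1059.5 and 1392.0 CPM in HG (-0.46 ± 0.19, exact permutation p = 0.0303), with overlap. The P450 match annotated cyp7b1 had the opposite sign, 0.70 ± 0.35 with all fish and 0.17 without LG fish 1 (exact permutation p = 0.296 with all fish). Fibroblast growth factor receptor 4, which in mammals carries the signal that restrains bile acid synthesis, had 7.74, 11.2 and 13.3 CPM in LG against 5.64, 8.02 and 9.22 CPM in HG for fgfr4 (0.49 ± 0.17, exact permutation p = 0.0238). The 50 cytochrome P450 genes as a whole had 39 negative members, of which cyp8b1 alone had an unadjusted p under 0.05, and the median was -0.19 with all fish and -0.09 without LG fish 1.

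Interferon response and antigen presentation genes were mostly higher in LG. Of 35 genes 31 were positive, 10 had an unadjusted p under 0.05 on the higher side and 0 on the lower side, and 1 was separate. Without LG fish 1 there were 30 positive, 5 higher and 0 lower. The separate gene, annotated parp12, is an interferon-induced mono-ADP-ribosyltransferase in mammals. It had 31.4, 34.1 and 40.3 CPM in LG and 19.8, 25.3 and 31.0 CPM in HG, with controls at 23.6 to 34.8 CPM (0.48 ± 0.14, and 0.44 without LG fish 1). The double-stranded RNA receptor gene tlr3 had 11.5, 14.4 and 24.7 CPM in LG against 8.23, 10.2 and 11.8 CPM in HG (0.62 ± 0.17, exact permutation p = 0.00433), and 5 of 6 LG fish lay above every HG fish. LG fish 1 was the highest, and the log2 fold change without it was 0.44.

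Other members had much smaller values without LG fish 1. The antiviral gene rsad2 had a log2 fold change of 1.67 with all fish and of 0.03 without LG fish 1, and cmpk2, induced along with it, had 2.21 and 0.78. The list level was -0.13 to 0.81 in LG and -0.24 to 0.15 in HG, where HG fish 3 was the highest, and -0.29 to 0.14 in controls. The wider set of pattern recognition, cytokine and chemokine genes had 32 of 38 positive and 6 at an unadjusted p under 0.05 on the higher side, but 23 and 1 without LG fish 1.

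Leukocyte markers were mostly on the higher side as well. Of 17 measured markers 16 were positive, 8 had an unadjusted p under 0.05 on the higher side and 1 on the lower side, and without LG fish 1 there were 15 positive, 4 higher and 1 lower. None was at 0 in any of the 12 exposed fish. Their summed level was 189 to 490 CPM in LG (median 352), 212 to 348 CPM in HG (median 236) and 220 to 517 CPM in controls (median 309), and their part in the interferon and complement values was not tested. In whole liver, fewer cells of a type and less RNA per cell cannot be told apart. The Wiskott-Aldrich gene was, an actin regulator of blood cells, was separate at 1.00, 1.33 and 2.24 CPM in LG against 0.31, 0.67 and 0.94 CPM in HG (1.14 ± 0.34), and the controls at 0.84 to 2.54 CPM lay largely with LG. The tetraspanin gene cd53, found on leukocytes, was separate too, with 2.60, 3.23 and 4.50 CPM in LG and 1.07, 2.06 and 2.56 CPM in HG (0.85 ± 0.27).

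The 2 zebrafish matches named mpeg1, a macrophage pore-forming protein, went in opposite directions. The match ENSDARG00000043093 had 0.35, 0.48 and 1.07 CPM in LG and 0.47, 1.88 and 2.74 CPM in HG (log2 fold change -1.67 ± 0.39, exact permutation p = 0.0108), with HG fish 5 among the LG fish. The match ENSDARG00000055290 of mpeg1 had a log2 fold change of 0.72 ± 0.30. Reads of such close relatives may have been split between them.

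Complement C1q, which starts the classical pathway and is made mainly by macrophages, was the part of the complement list with an unadjusted p under 0.05. All 3 of its chains did so on the higher side (2 without LG fish 1), of 33 complement genes with 28 positive. For c1qc there were 3.34, 7.63 and 11.0 CPM in LG, 2.51, 3.15 and 5.18 CPM in HG and 2.33, 6.09 and 12.8 CPM in controls (1.13 ± 0.28, exact permutation p = 0.00866). LG fish 3 was the one LG fish within the HG range, and the value without LG fish 1 was 1.07.

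Signalling genes included a separate kinase. The stress kinase gene map3k6, which acts upstream of JNK and p38 in mammals, had 30.2, 36.0 and 82.2 CPM in LG, 16.9, 22.4 and 28.8 CPM in HG and 17.4, 25.5 and 39.7 CPM in controls (0.94 ± 0.24). LG fish 1 was the highest by far, but the other 5 LG fish also lay above every HG fish, and the log2 fold change without it was 0.65. It was the single separate gene among 60 MAP kinase and phosphatase genes, of which 38 were positive. At an unadjusted p under 0.05, 4 of them were higher and 0 lower, where 3.49% and 2.21% of all genes were. Of all genes with a mean of at least 1 CPM, 0.171% were separate on the higher side. The NF-kappa B list had 30 of 41 positive and 5 higher, but 21 positive and 3 higher without LG fish 1, and the median was 0.23 with all fish and 0.0029 without it.

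The growth arrest gene gadd45a, induced by DNA damage in vertebrates, was separate in the other direction. It had 0.90, 1.86 and 2.82 CPM in LG, 2.86, 3.96 and 8.23 CPM in HG and 2.15, 3.64 and 6.16 CPM in controls (-1.23 ± 0.31). HG fish 1 was the highest, and the value without it was -0.96. The transcription-coupled repair gene ercc6 was separate as well, at 1.81, 2.42 and 2.95 CPM in LG and 3.13, 3.75 and 4.39 CPM in HG (-0.62 ± 0.18). The whole p53, DNA damage and apoptosis list was balanced, with 25 of 48 positive and a median of 0.0069. The replication gene cdc45 had 1.03, 1.90 and 12.0 CPM in LG and 1.24, 11.6 and 23.4 CPM in HG (-1.72 ± 0.65, exact permutation p = 0.0476), with LG fish 3 high and HG fish 3 low against their groups. The 72 cell cycle genes had 33 positive and a median of -0.05, and 47 positive with a median of 0.11 without LG fish 1.

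**Figure D4:**
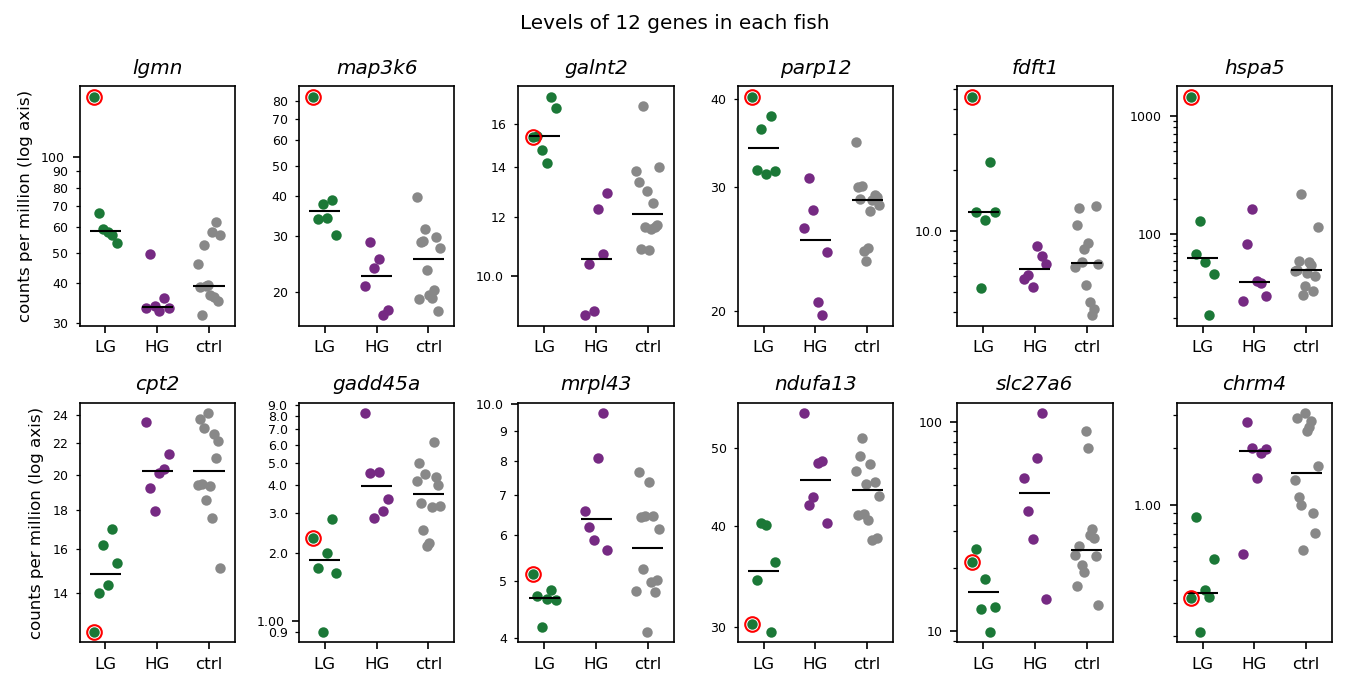
Levels of 12 genes in CPM (log axis) in each LG, HG and control fish, with group medians as black lines and LG fish 1 circled in red. In lgmn, map3k6, galnt2, parp12, cpt2, gadd45a, mrpl43 and ndufa13 all 6 LG fish lie on 1 side of all 6 HG fish, whereas in hspa5 LG fish 1 at 1434.5 CPM stands alone.

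Separate genes outside the lists included a protease and a glycosyltransferase. Legumain, a lysosomal protease encoded by lgmn, had 53.7, 58.6 and 154.1 CPM in LG, 32.9, 33.8 and 49.6 CPM in HG and 31.8, 39.4 and 62.4 CPM in controls (1.03 ± 0.25). LG fish 1 and HG fish 2 were the highest of their groups, and without LG fish 1 the log2 fold change was 0.69. The gene galnt2, whose enzyme adds the first sugar of mucin-type O-glycans, had 14.2, 15.4 and 17.4 CPM in LG, 8.87, 10.5 and 12.9 CPM in HG and 10.8, 12.1 and 16.9 CPM in controls (0.55 ± 0.13). Here LG fish 1 was in the middle of its group, and the value without it was also 0.55. DESeq2 called both genes.

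Among separate genes with lower levels in LG, ppdpf (named for pancreatic progenitor differentiation in zebrafish) had 422.6, 719.6 and 816.5 CPM in LG and 846.7, 1147.2 and 1302.0 CPM in HG (-0.73 ± 0.19). The aminoacylase gene acy3 had 10.1, 19.9 and 22.1 CPM in LG and 22.4, 27.9 and 32.4 CPM in HG (-0.60 ± 0.18). A match without a gene name, zgc:103559, had 19.1, 30.5 and 35.7 CPM in LG and 36.7, 51.3 and 88.4 CPM in HG (-0.93 ± 0.22). The log2 fold changes of these 3 without LG fish 1 were -0.62, -0.47 and -0.83, and DESeq2 called ppdpf and zgc:103559. The separate gene of largest change, si:dkeyp-118h9.7, had 3.27, 5.53 and 122.0 CPM in LG and 0.72, 2.32 and 3.25 CPM in HG (3.50 ± 0.93), and 1.54 without LG fish 1. The exact test and DESeq2 both called it.

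The further separate genes named by the same rule were pls3 (0.62, and 0.40 without LG fish 1, which had 62.6 CPM against 29.3 to 33.8 CPM in the other LG fish), gp5 (0.72), spock3 (1.04) and tceanc2 (0.78) on the higher side and tfpt (-0.54) and the match named shugoshin-like 1 (-0.58, called by DESeq2) on the lower side. Levels were low for gp5 (1.38 to 2.07 CPM in LG, 0.91 to 1.24 CPM in HG) and spock3 (2.25 to 3.37 and 0.24 to 2.09 CPM). They were low for tceanc2 too, whose lowest LG fish had 1.285 CPM and whose highest HG fish had 1.28 CPM. Further genes called although their fish overlapped were nr1d2 and fam195a by DESeq2 and chrm4 by the exact test. The clock repressor gene nr1d2 had 26.6, 31.5 and 35.8 CPM in LG, 33.2, 48.5 and 60.6 CPM in HG and 20.3, 27.1 and 61.2 CPM in controls (-0.62 ± 0.16, exact permutation p = 0.00649). The muscarinic receptor gene chrm4 was low throughout, at 0.21, 0.34 and 0.86 CPM in LG and 0.55, 1.93 and 2.77 CPM in HG (-2.03 ± 0.41, exact permutation p = 0.00433), with 5 of 6 LG fish below every HG fish. For fam195a, LG fish had 5.57, 7.10 and 9.12 CPM and HG fish 8.66, 13.01 and 15.4 CPM (-0.79 ± 0.19, exact permutation p = 0.00649).

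The ER chaperone and unfolded protein response genes, which fold secreted proteins and react to their misfolding, had the largest median of the 38 lists with all fish (0.50), and this rested on LG fish 1 (0.11 without it). Of 50 genes 45 were positive, 12 had an unadjusted p under 0.05 on the higher side and 0 on the lower side, and 0 were separate. When LG fish 1 was left out there were 38 positive, 0 higher and 0 lower. The master chaperone BiP, encoded by hspa5, had 21.0, 63.6 and 1434.5 CPM in LG, 27.4, 39.9 and 165.0 CPM in HG and 31.1, 49.9 and 218.7 CPM in controls (2.19 ± 0.94, exact permutation p = 0.437, 0.01 without LG fish 1). The highest of the other LG fish was at 129.5 CPM, within the HG range. Its relative hyou1 had 9.98, 13.2 and 323.1 CPM in LG and 4.48, 8.69 and 18.5 CPM in HG (2.65 ± 0.91, exact permutation p = 0.123), and 0.31 without LG fish 1.

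Proteasome and aminoacyl-tRNA synthetase values depended on the same fish. Proteasome subunits, which degrade tagged proteins, had 40 of 52 positive with all fish and 20 of 52 without it, with medians of 0.18 and -0.04. Aminoacyl-tRNA synthetases, which load amino acids onto tRNAs, had 25 of 32 positive with all fish and 13 without it, with medians of 0.25 and -0.05. Cytosolic heat shock proteins and chaperonins had 17 of 39 positive with all fish and 7 without it, with medians of -0.02 and -0.19. With all fish 0 of them had an unadjusted p under 0.05. Without LG fish 1 there were 3, all on the lower side: hspa9 (-0.29), ahsa1 (-0.66, match ENSDARG00000011127) and cct6a (-0.33). Of these, hspa9 encodes a mitochondrial chaperone, so the list is not purely cytosolic. Single genes whose value depended on LG fish 1 were egr1, an early response factor (2.84 with all fish, -0.21 without), pglyrp2, a bacterial cell wall sensor (3.15 and 0.09), and g0s2, an inhibitor of fat breakdown in mammals (4.18 and 0.97). For g0s2 LG fish 1 had 415.4 CPM, and the other LG fish had 0.72 to 34.6 CPM, against 0.59 to 14.9 CPM in HG. Of 55 genes that the study's own text names for LG or HG, 46 were positive with a median of 0.68, and 32 with a median of 0.05 without LG fish 1. With all fish 2 of the 55 were separate on the higher side and 1 on the lower side. Among all genes with a mean of at least 1 CPM the shares were 0.171% and 0.191%. That list was drawn up on these same fish and is not independent evidence.

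Collagens, laminins, integrins and matrix enzymes, which form the tissue scaffold, had 64 of 96 positive, with 9 at an unadjusted p under 0.05 on the higher side and 2 on the lower side, and 5 and 5 without LG fish 1. The integrin subunit gene itgav had 10.4, 12.6 and 15.2 CPM in LG and 6.42, 8.60 and 12.98 CPM in HG (0.55 ± 0.18, exact permutation p = 0.0108), with overlap. Lists with neither a separate gene nor a median beyond 0.1 in either direction with all fish included glutathione and antioxidant enzymes (median -0.04, 26 of 57 positive), autophagy (-0.01, 17 of 44), circadian clock (0.04, 17 of 31), insulin, growth hormone and IGF signalling (0.02, 27 of 50) and amino acid breakdown (-0.08, 33 of 92). In the same order, the genes higher and lower at an unadjusted p under 0.05 were 1 and 3, 0 and 0, 2 and 2, 2 and 1, and 0 and 4. Vitellogenin, egg envelope and estrogen receptor genes, the usual markers of estrogen action in fish liver, had 5 of 8 positive, 0 at an unadjusted p under 0.05 and a median of 0.14.

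Lipoprotein genes, which package and clear blood lipids, had 22 of 33 members negative. At an unadjusted p under 0.05, 3 were lower and 1 higher, where 2.21% and 3.49% of all genes were, and 0 were separate. The lipid carrier matched to apolipoprotein A-IV had 1138.6, 1385.8 and 2024.3 CPM in LG and 1152.4, 2260.1 and 4341.2 CPM in HG, with controls at 638.3 to 3860.9 CPM (-0.74 ± 0.27, exact permutation p = 0.0563). In contrast, lrpap1, a chaperone of lipoprotein receptors, had 14.4, 21.8 and 38.6 CPM in LG and 11.2, 13.6 and 19.2 CPM in HG (0.71 ± 0.23, exact permutation p = 0.0303, 0.51 without LG fish 1). Both genes overlapped between groups.

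Sphingolipid enzymes, which make and break down ceramides, had 22 of 29 positive and 2 at an unadjusted p under 0.05, both on the higher side. Without LG fish 1 these were 19 and 2. Of all genes, 3.49% were higher at that threshold, and 2.85% without LG fish 1. The ceramide synthase gene cers1 had 6.28, 11.3 and 33.5 CPM in LG, 4.47, 6.95 and 10.9 CPM in HG and 5.50, 13.7 and 46.0 CPM in controls (1.04 ± 0.37, exact permutation p = 0.0519), with LG fish 3 the highest and 0.66 without it. In the coagulation list, with 31 of 46 negative, the single gene at an unadjusted p under 0.05 was tfpi2, a protease inhibitor, at 5.50, 6.80 and 11.2 CPM in LG against 2.48, 3.77 and 6.71 CPM in HG (0.78 ± 0.26, exact permutation p = 0.0216). Of the LG fish 3 lay above every HG fish.

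The acute phase list had 28 of 39 positive, 3 of them at an unadjusted p under 0.05, and a median of 0.12. Of all genes, 3.49% were higher at that threshold. Leaving out LG fish 1 gave 22 positive, 1 higher and 1 lower, with a median of 0.02. The largest values were those of the 2 lect2 matches, a hepatokine of fish and mammals, and they scattered widely within groups. The match ENSDARG00000033227 of lect2 had 3.43, 117.5 and 2285.2 CPM in LG, 2.83, 17.1 and 92.4 CPM in HG and 1.90, 56.0 and 1206.3 CPM in controls (4.01 ± 1.47, exact permutation p = 0.331). LG fish 1 was the highest and 3 LG fish lay within the HG range, and the log2 fold change without LG fish 1 was 2.11 (unadjusted p = 0.0961 in edgeR's quasi-likelihood test). The other lect2 match had 3.73 with all fish and 1.98 without it (unadjusted p = 0.106 in the same test).

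Red cell marker sums were mostly lower in LG. Red cell markers, among them the globins, summed to 1030 to 2130 CPM in LG (median 1238), 1393 to 2054 CPM in HG (median 1814) and 828 to 2024 CPM in controls. Of the LG fish 4 lay below every HG fish, whereas LG fish 1 lay above them. With all fish 7 of 9 markers were negative with a median of -0.27, and 1 was higher and 0 lower at an unadjusted p under 0.05. The median was -0.49 without LG fish 1, with 1 higher and 3 lower. Exocrine pancreas markers, digestive enzymes of tissue that lies beside the liver in trout, summed to 33.6 to 118.3 CPM in LG and 74.5 to 186.7 CPM in HG, and all 8 were negative with a median of -1.13, 0 of them at an unadjusted p under 0.05. The list level in each fish, however, had a median of -0.09 in LG (-1.46 to 1.04) and -0.34 in HG (-1.32 to 2.6). For the match annotated cpa1, HG fish 4 and 6 had 8.04 and 3.90 CPM and the HG median was 0.39 CPM, against 0.63 CPM in LG. Its log2 fold change was -1.26 with all fish and -0.17 without HG fish 4. Stellate and mesenchymal, endothelial and biliary marker sums of the LG fish overlapped with those of the HG fish. The part of these cells in the gene values above was not tested.

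On the transcript level, the 14 transcripts that both the exact test and DESeq2 called included 11 without a zebrafish match. Of the 3 with a match, a tfcp2l1 transcript had 0.79, 1.08 and 1.34 CPM in LG and 2.02, 2.61 and 4.74 CPM in HG, with controls at 0.73 to 3.21 CPM (log2 fold change -1.55 ± 0.26). The gene encodes a transcription factor of epithelia and stem cells in mammals, and the fish were separate for this transcript. Another tfcp2l1 transcript, called by DESeq2 but not by the exact test, overlapped, at 0.86, 1.44 and 1.76 CPM in LG and 1.58, 3.09 and 6.19 CPM in HG (-1.37 ± 0.31). A transcript of fdx1, the ferredoxin that feeds electrons to mitochondrial P450 enzymes, had 1.68, 3.05 and 6.48 CPM in LG and 0, 0.71 and 1.62 CPM in HG (2.36 ± 0.59). These fish were separate too, and in controls it lay at 0 to 2.87 CPM with a median of 0.19 CPM.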

How the data were processed

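The authors mapped the reads of each liver to their own Trinity assembly and deposited raw counts per transcript, without normalization (Bowtie2 2.1.0, SAMtools 0.1.18 and edgeR are named in the submitters' processing notes). The deposited log2 fold change, mean log2 CPM, p-value and FDR columns hold the authors' own comparisons with controls and were not used. The low- and high-dose count tables were joined by transcript, and counts were summed per zebrafish best hit. Symbols and descriptions follow the deposited annotation, and pairs of symbol and description listed beforehand as conflicting were left out of lists. Other list members kept a symbol and a description that name different members of a family, such as cpa1, described as carboxypeptidase A5. Features with 1 or more reads in 6 or more of the 12 fish were tested in R 4.3.3 with edgeR 4.0.16 (TMM, quasi-likelihood test, 2-sided, no covariates) and Benjamini-Hochberg adjustment, with calls under 0.1. Alternatives were the edgeR exact test, DESeq2 1.42.0, limma-voom 3.58.1 with quality weights, a robust fit, RLE factors, other filters, a replicate block, a fit with the 12 controls and leaving out each fish. Control CPM were placed on the scale of the 12 exposed fish, and log2 levels add 0.5 CPM. Scripts were tested on simulated data. Named genes are the separate genes of largest change (10 in each direction), the 2 members of smallest p and the separate members of each list, the 5 largest changes in each direction at unadjusted p under 0.05, and a few stress genes. The text gives a part of them. Members and lists were chosen with earlier results of these data known. Depth limits the precision of low counts.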

Additional observations from a re-analysis of the deposited data

Results flagged for a closer look

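Within each group of 6 fish, the gap between the highest or lowest fish and its nearest neighbour was divided by the group range. This ratio was compared with Dixon's 95% critical value. The ratios of single genes were taken on CPM, and those of lists on the logarithmic list levels. On CPM a fish above its group gives a larger ratio than on a logarithmic scale. Some gene passes for a highest fish may thus depend on the CPM scale. Gene ratios on a logarithmic scale were not tested. The counts below join both scales. Of 146 groups (LG and HG for each of 38 lists and of 35 named genes) 42 passed. Chance passes about 5% of groups, but only for independent values not chosen by size. Here many of the genes were chosen for changes in which LG fish 1 takes part, and the lists share the same fish, so the count is not read against that share. LG fish 1 accounted for 28 of them (15 lists and 13 genes).

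For list levels, LG fish 1 was the highest for ER chaperones (gap over range 0.877), metallothionein and zinc transporters (0.822), proteasome (0.812), aminoacyl-tRNA synthetases (0.812), pattern recognition, cytokine and chemokine genes (0.748), cytosolic heat shock proteins and chaperonins (0.707), sodium, calcium and proton pumps (0.664) and sterol synthesis (0.634). The same fish was the lowest for glycolysis and gluconeogenesis (0.819), riboflavin transport (0.733), glucuronosyltransferases and sulfotransferases (0.712), bile acids (0.690), cytochrome P450 enzymes (0.688), fatty acid oxidation (0.645) and amino acid breakdown (0.635). LG fish 3 was the highest for cytosolic ribosomal proteins (0.768). HG fish 3 was the highest for the interferon list (0.857) and HG fish 1 for mitochondrial ribosomal proteins (0.655).

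For single genes, LG fish 1 was the highest for hyou1 (0.983), ceacam1, the match described as carcinoembryonic antigen-related cell adhesion molecule 1 (0.976), prdm1a (0.956), hspa5 (0.923), g0s2 (0.918), si:dkeyp-118h9.7 (0.903), lgmn (0.870), pls3 (0.866), map3k6 (0.830), the 2 lect2 matches (0.821 and 0.804) and fosl2 (0.799), and the lowest for mgll (0.651). LG fish 3 was the highest for cdc45 (0.845). In HG, fish 6 was the highest for umod (0.934) and a type I cytokeratin (0.858). HG fish 5 was the highest for the match annotated ddit4l but described as DNA-damage-inducible transcript 4 (0.878). HG fish 2 was the highest for lgmn (0.812) and si:ch1073-181h11.2 (0.644), and HG fish 3 for ceacam1 (0.797) and g0s2 (0.759). HG fish 1 was the highest for mgll (0.917), tfpt (0.698) and gadd45a (0.683).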

How the results depend on the processing

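At an adjusted p of 0.1 the quasi-likelihood test called 0 genes and 0 transcripts, and so did the limma-voom, robust, RLE, other-filter, replicate block and 24-fish fits, each with 0 calls. The edgeR exact test called 3 genes and 24 transcripts and DESeq2 called 11 genes and 25 transcripts. Leaving out single fish gave 0 to 0 genes and 0 to 3 transcripts, the 3 without LG fish 2. Separate genes numbered 36 with all fish and 42 to 95 when a fish was left out. Of the values of named genes 8 reversed in direction, in 6 genes. Under the voom quality weights the log2 fold changes were -0.22 for atf3, -0.24 for atp2a1 and -0.27 for fosl2. When each fish in turn was left out, they ranged over -0.36 to 0.99 for atp2a1 and -0.10 to 1.37 for atp2a2. The ranges were -0.21 to 3.10 for egr1 and -0.10 to 2.13 for fosl2. Each of these was lowest without LG fish 1. For the match annotated ddit4l but described as DNA-damage-inducible transcript 4, the range was -0.93 to 0.038, highest without HG fish 5. The weight of LG fish 1 in the voom fit of genes was 0.183, against 0.823 to 1.62 in the other fish. Same-numbered LG and HG fish did not deviate together: their correlations over genes were -0.05 to 0.19, 2 of 6 exceeded 0.1, and the numbers were taken as names only. With the replicate number as a block, 0 genes and 0 transcripts were called. In counts simulated at the depths of these fish, 2-fold changes were recovered for 71 of 100 genes and 16 of 100 transcripts, and 4-fold changes for 97 and 90 of 100. Changed features were drawn only from those with a mean of at least 1 CPM. The simulation held no fish that stood apart and no shared tanks, so these shares do not give the sensitivity in the real fish. The levels differ in reads per feature and in the number of features tested, and depth alone was not varied.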

Other observations

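Some transcripts without a zebrafish match were present in 1 or 2 fish of a dose and close to absent in the others of that dose. They were chosen after their values were seen. For comp119434_c2_seq2, LG fish 2 had 7.00 CPM and the other 5 LG fish 0.14 to 0.54 CPM, whereas all HG fish had 4.99 to 12.0 CPM and controls 0.35 to 10.1 CPM. This transcript and comp119434_c2_seq1 (4.31 CPM in LG fish 2, 3.36 to 7.88 CPM in HG) were among the 3 called by edgeR's quasi-likelihood test without LG fish 2, at adjusted p = 0.000366 and 0.0013. That fit leaves out the LG fish whose value lay within the HG range. With all fish the adjusted p of the same test was 0.880 for both, and neither the exact test nor DESeq2 called them. For comp119374_c0_seq24, HG fish 2 and 4 had 877.8 and 962.4 CPM, the LG fish 0 to 2.07 CPM and the other HG fish 0.27 to 1.88 CPM, and the highest control had 645.3 CPM. Both the exact test and DESeq2 called it.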
